A study of Homo sapiens with 6 samples.

Results

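K562 is a human erythroleukaemia cell line, derived from chronic myeloid leukaemia and grown in suspension, and it is widely used as a model of early red cell and platelet precursors. The 2 libraries described here, replicates 1 and 2 of Control K562, carry the genotype WT in the sample labels. They are 2 of 6 RNA-seq libraries of a study of deleted ultraconserved elements, whose other 4 libraries, 2 each of PAX6_Ta KO and PBX3_Cl KO clones, were not compared here. Control cells grew in RPMI 1640 with fetal bovine serum and antibiotics, and the labels name no guide RNA or clone for them. The libraries were taken by their label, and all 52088 entries of the count table were read in both libraries. Nothing in the labels says that the replicates were separate cultures, so differences between them may be technical.

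The libraries held 60908470 and 47949941 counts. Levels are given as counts per 1000000 counted reads (CPM), and a pair of values is replicate 1 and then replicate 2. An entry is called expressed at 1 CPM or more in both libraries and near background under 0.1 CPM in both, with low levels in between. With 0 counts in a library, counting error still allows a level of up to 0.0493 CPM in replicate 1 and 0.0626 CPM in replicate 2 (3 counts). By this rule 13251 entries were expressed, 25.4% of all entries. Among the 19200 protein-coding entries, 57.5% were expressed and 28.9% were near background, and 3549 had no count in either library. Where levels of different genes are ranked per length, they are given as TPM, transcripts per 1000000, which corrects for transcript length.

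Blood cell lineages differ in the proteins they make and in the transcription factors that switch those genes on. Red cell precursors use GATA1, TAL1 and KLF1 to make globins, haem enzymes and a specialised membrane skeleton. Megakaryocytes, the cells that shed platelets, share GATA1 with red cell precursors and add FLI1 and RUNX1, adhesion receptors and secretory granules. Myeloid cells depend on SPI1 and CEBPA, and blood stem cells carry CD34 and HOXA factors.

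The 4 genes that mark K562 were all high in both libraries. HBE1, the embryonic beta-like globin, stood at 2579.9 and 2165 CPM. HBG2, a fetal beta-like globin, stood at 927 and 907 CPM. Its near-identical copy HBG1 stood at 701 and 668 CPM. GATA1, the master regulator of red cell genes, stood at 298 and 267 CPM.

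Beta-like globins are switched in order from embryonic to fetal to adult forms during development, and Control K562 held almost only the early ones. HBE1, HBG1 and HBG2 made up 99.7% and 99.8% of the counts of the 5 beta-like globins in the table. By TPM the order was HBE1 (8206 and 7103 TPM), HBG2 (3136 and 3162 TPM) and HBG1 (2367 and 2327 TPM), with no overlap between neighbours. HBG1 and HBG2 are near-identical copies, so their separate levels and their order are uncertain. Their distance also depends on the length used. With all exons of a gene as its length, the means were 3301 TPM for HBG2 and 1413 TPM for HBG1. HBD, a minor adult globin, was far lower at 32.1 and 24.3 TPM. HBB, the adult beta globin, had only 36 and 15 counts, or 0.591 and 0.313 CPM, and was below the expressed level.

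Alpha-like globins pair with the beta-like chains, and per length they were lower than HBE1, HBG1 and HBG2. HBA2 stood at 774 and 708 TPM, or 225 and 199 CPM. Its near-identical copy HBA1 stood at 113 and 118 TPM, or 33.017 and 33.4 CPM. The copies share most of their sequence, so their separate levels are uncertain. HBQ1 stood at 30.3 and 30.9 CPM, and the TPM values of HBQ1 and HBA1 overlapped. HBZ, the embryonic alpha-like chain, stood at 19.964 and 13.014 CPM, with a ratio of replicate 1 over replicate 2 of 1.53 (1.39 to 1.69). HBM, at 0.148 and 0.104 CPM, was low in both libraries. AHSP, the chaperone of alpha globin, was low too at 0.279 and 0.292 CPM. Of the 11 genes on this list 8 were expressed, and the 10 globins took 0.453% of counts in replicate 1 (95% exact binomial interval 0.451% to 0.454%) and 0.402% in replicate 2 (0.401% to 0.404%). Such intervals cover counting error only.

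The erythroid transcription factors were expressed almost without exception, 14 of the 15 on the list. NFE2, which binds the globin control regions, had the highest level per length at 552 and 533 TPM, or 461 and 432 CPM. KLF1, an activator of red cell genes, stood at 302 and 251 CPM. TAL1, a partner of GATA1, stood at 492 and 359 CPM. The repressor GFI1B stood at 125 and 132 CPM. Over the 14 expressed factors, the log2 ratio of replicate 1 over replicate 2 lay between -0.42 and 0.45. BCL11A, the silencer of fetal globin genes, was the exception with 0 and 1 counts. No member of the list differed 2-fold between the libraries. Over all 13784 entries with a mean of at least 1 CPM, 1.33% were 2-fold or more higher in replicate 1 and 1.45% in replicate 2.

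The enzymes and carriers of haem and iron were also nearly all expressed, 20 of 21. FTL, the light chain of the iron store ferritin, led at 3878 and 3789 TPM, or 1704 and 1615 CPM. UROD, a haem synthesis enzyme, stood at 661 and 575 TPM. TFRC, the receptor that takes up transferrin-bound iron, stood at 1017 and 1194 CPM. FTH1, the heavy ferritin chain, was listed at only 19.5 and 18.6 CPM. It has many near-identical pseudogenes, so this level is uncertain. HMOX1, the enzyme that breaks haem down, had no count in either library, and no other entry overlaps it.

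All 9 enzymes of haem synthesis had more CPM in replicate 1 than in replicate 2, with a median log2 ratio of 0.33. Over all 13784 entries with a mean of at least 1 CPM, 5839 had more CPM in replicate 1 and the median log2 ratio was -0.05. FECH, which inserts the iron, stood at 119 and 95.5 CPM. ALAS2 (chrX:55035488-55057410 in GRCh37), the red cell form of the rate-limiting enzyme, stood at 129.8 and 42.7 CPM. It was the only member of the haem and iron list beyond 2-fold, with a ratio of 3.04 (2.90 to 3.19). ALAS1, the form of this enzyme that most cells use, stood at 41.1 and 37.2 CPM, so the red cell form was the higher per length in both libraries, at 133 and 44.982 TPM against 34.3 and 32.004 TPM for ALAS1.

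Genes of the red cell surface and skeleton were expressed for 29 of 36 entries. RHAG, a scaffold of the Rh blood group complex, led per length at 1036 and 722 TPM, or 991 and 669.6 CPM. KCNH2, a potassium channel, stood at 835 and 827 CPM and BLVRB, a biliverdin reductase, at 153 and 125 CPM. Of the glycophorins, GYPC stood at 210.2 and 133 CPM, GYPE at 26.2 and 35.3 CPM and GYPB at 5.43 and 6.05 CPM. The anchor protein ANK1 stood at 191 and 176 TPM. The anion exchanger SLC4A1, to which ANK1 binds, was far lower per length at 1.25 and 0.594 TPM. SLC4A1 was 2-fold or more higher in replicate 1, at 3.12 and 1.44 CPM and a ratio of 2.17 (1.64 to 2.90). So was the water channel AQP1, at 2.74 and 0.792 CPM and a ratio of 3.46 (2.42 to 5.06). AQP1 was under 1 CPM in replicate 2. CD44 lay just short of 2-fold, with a log2 ratio of 1.00 at 8.37 and 4.19 CPM. ACKR1 had 9 and 5 counts. ICAM4, a blood group adhesion protein, had no count, but it overlaps ENSG00000267607, which had 100 and 97 counts, so that shared reads could not be told apart.

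**Figure D1:**
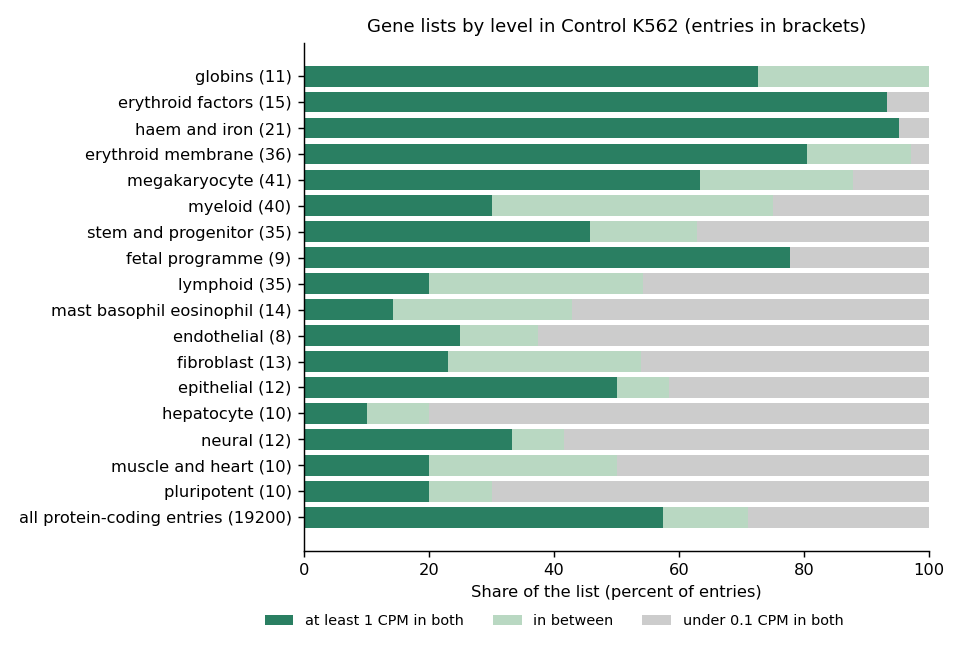
Share of each gene list, in percent of its entries (number in brackets), at 1 CPM or more in both Control libraries, in between, or under 0.1 CPM in both. The erythroid factors and the haem and iron genes are expressed almost completely, 14 of 15 and 20 of 21, against 57.5% of all protein-coding entries in the bottom bar.

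Together the 3 erythroid lists held 63 expressed genes of 72, and 3 of the 64 with a mean of at least 1 CPM were 2-fold or more higher in replicate 1. The megakaryocyte list had 26 of 41 genes expressed, or 63.4%, near the 57.5% of all protein-coding entries, with 10 low and 5 near background. Its highest genes per length were TLN1, SRGN and VCL, which many other cells also use. TLN1, which activates integrins, stood at 241 and 221 TPM, VCL at 169 and 165 TPM and SRGN, a granule proteoglycan, at 189 and 196 TPM. All 12 genes of the factor and skeleton group were expressed, RUNX1 at 52.9 and 86.966 CPM and MEIS1 at 31.2 and 25.9 CPM among them. The receptors were mixed. GP6, a collagen receptor, stood at 48.1 and 43.5 CPM and GP1BA, a receptor for von Willebrand factor, at 3.04 and 3.11 CPM. GP1BB and TREML1 had no count, although GP1BB lies within the span of SEPTIN5, which had 26205 and 20553 counts, so that shared reads could not be told apart.

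Among the blood lineage lists, this one held the most genes that differed between the Control libraries. The list was chosen with earlier results of these data known, so its counts are a description and not independent support. Of its 28 genes with a mean of at least 1 CPM, 9 were 2-fold or more higher in replicate 1, against 1.33% of all 13784 such entries. None was 2-fold higher in replicate 2, against 1.45% of all entries. Such differences were more frequent at low levels. Among protein-coding entries with a mean of 1.00 to 7.46 CPM, 4.98% were higher in replicate 1 and 2.27% in replicate 2. Of the 9 genes, SELP, MMRN1, FLI1, ITGB3 and PLEK had means in this range. SELP passed the level filter through replicate 1 alone, and the other 8 were above 1 CPM in both libraries. Scaling by TMM, by DESeq2 size factors or by protein-coding counts shifts every log2 ratio by the same small amount. The split stayed at 9 to 0 under each, which is therefore not a separate check. With 1 library on each side these differences have no replicate check. In bulk RNA, more cells with a programme and more RNA of it per cell cannot be told apart.

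Granule proteins were among the 9. PPBP (chr4:74852156-74853907 in GRCh37), the platelet basic protein and the entry with the largest ratio in the table at a mean of 5 CPM or more, had 1381 and 69 counts, or 22.7 and 1.44 CPM, a ratio of 15.8 (12.4 to 20.4). SELP (chr1:169558087-169599431), the P-selectin of platelet granules, had 261 and 12 counts and a ratio of 17.1 (9.64 to 33.6). THBS1, thrombospondin, stood at 21.4 and 5.19 CPM with a ratio of 4.12 (3.59 to 4.74). MMRN1, multimerin, stood at 5.04 and 1.25 CPM with a ratio of 4.03 (3.05 to 5.40). PLEK, the platelet signalling protein pleckstrin, stood at 12.9 and 1.81 CPM with a ratio of 7.10 (5.69 to 8.97). All of these were low in replicate 2, at 5.19 CPM or less.

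The integrin that platelets use to bind fibrinogen followed the same direction in both of its chains. ITGA2B (chr17:42449548-42467017 in GRCh37) had 3232 and 826 counts, or 53.1 and 17.2 CPM, a ratio of 3.08 (2.85 to 3.33). ITGB3 stood at 5.91 and 2.54 CPM, a ratio of 2.32 (1.89 to 2.88). TUBB1, the tubulin of the platelet rim, stood at 27.8 and 9.66 CPM, a ratio of 2.88 (2.60 to 3.20). FLI1 (chr11:128556430-128683162), the ETS factor that drives megakaryocyte genes, had 408 and 58 counts, or 6.70 and 1.21 CPM, a ratio of 5.54 (4.20 to 7.42).

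Below the level filter, PF4, VWF and GP9 were seen almost only in replicate 1. PF4, platelet factor 4, had 44 and 0 counts, which is at least 11.5-fold higher in replicate 1 against a floor of 3 counts in replicate 2. VWF had 79 and 2 counts, a ratio of 31.1 (8.33 to 261). GP9 had 77 and 3 counts, a ratio of 20.2 (6.66 to 100.1). By contrast GP1BA, GP6, P2RY1 (35.02 and 41.1 CPM), F2RL3 (65.7 and 73.8 CPM) and SRGN were nearly level between the libraries, and RUNX1 was lower in replicate 1.

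Other markers moved with these genes in part. On the myeloid list, 1 of 14 genes with a mean of at least 1 CPM was 2-fold higher in replicate 1, on the stem and progenitor list 2 of 17, and on the lymphoid list none of 8. The summed levels were 330 and 282 CPM for the myeloid list, 113 and 139 CPM for the lymphoid list and 219 and 387 CPM for the fibroblast list. Markers of other blood cells were uneven. MPO, CD3E and CD14 were at 0.263 CPM or less in both libraries, whereas SPI1, AZU1, CD3D and CD22 were above 1 CPM in both. ITGAM and PTPRC, used by many white blood cells, were 2-fold or more higher in replicate 1 as well. The part of cell state, culture or library preparation in the difference was not tested.

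The promoters of PPBP, SELP, PLEK, ITGA2B and ALAS2 are shown because their transcripts were higher together in replicate 1. The windows run from 250 bases before to 50 after the RefSeq start on GRCh38.p14, on the gene's strand. Capitals mark the letters AGATAA, which the factor family of GATA1 prefers to bind. They also mark the letters AGGAAG, which factors of the ETS family, FLI1 included, can bind. Both strands were searched, so a motif on the other strand is printed as its reverse complement.
PPBP, chr4:73988141-73988440, minus strand: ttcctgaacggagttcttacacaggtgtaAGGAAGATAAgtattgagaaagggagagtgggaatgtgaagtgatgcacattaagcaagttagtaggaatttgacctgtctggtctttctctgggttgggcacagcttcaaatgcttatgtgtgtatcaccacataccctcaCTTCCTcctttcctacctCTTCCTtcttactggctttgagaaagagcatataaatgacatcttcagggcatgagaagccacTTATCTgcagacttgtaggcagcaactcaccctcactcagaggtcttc
SELP, chr1:169630075-169630374, minus strand: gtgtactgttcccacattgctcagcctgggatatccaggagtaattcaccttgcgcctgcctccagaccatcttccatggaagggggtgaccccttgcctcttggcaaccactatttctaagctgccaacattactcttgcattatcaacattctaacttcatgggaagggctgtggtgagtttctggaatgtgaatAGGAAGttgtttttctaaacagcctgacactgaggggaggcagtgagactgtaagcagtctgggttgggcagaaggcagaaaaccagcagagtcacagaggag
PLEK, chr2:68365032-68365331, plus strand: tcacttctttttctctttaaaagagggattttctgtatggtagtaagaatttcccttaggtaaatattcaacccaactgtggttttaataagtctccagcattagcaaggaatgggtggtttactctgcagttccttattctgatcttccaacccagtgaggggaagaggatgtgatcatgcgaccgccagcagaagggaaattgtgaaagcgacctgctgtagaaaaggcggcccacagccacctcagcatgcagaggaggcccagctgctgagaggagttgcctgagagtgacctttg
ITGA2B, chr17:44389600-44389899, minus strand: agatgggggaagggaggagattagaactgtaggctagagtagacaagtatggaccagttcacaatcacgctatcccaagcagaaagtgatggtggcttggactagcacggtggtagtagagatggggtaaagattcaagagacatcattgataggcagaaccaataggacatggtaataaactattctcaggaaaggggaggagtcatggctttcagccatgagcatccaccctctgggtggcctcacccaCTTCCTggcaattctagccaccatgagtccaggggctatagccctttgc
ALAS2, chrX:55030928-55031227, minus strand: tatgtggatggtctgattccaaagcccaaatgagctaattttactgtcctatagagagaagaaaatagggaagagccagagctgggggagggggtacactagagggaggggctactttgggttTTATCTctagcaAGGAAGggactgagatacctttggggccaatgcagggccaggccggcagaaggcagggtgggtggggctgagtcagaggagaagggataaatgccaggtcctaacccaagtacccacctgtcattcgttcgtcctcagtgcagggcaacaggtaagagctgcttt

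RefSeq windows were at hand for 7 of the 9 megakaryocyte genes that were 2-fold higher in replicate 1. AGGAAG or its complement occurred in windows of 5 of these 7 genes, which had 8 windows in all, and in 33.7% of all 34943 promoter windows. AGATAA or its complement occurred in 1 of the 7, PPBP, and in 10.4% of all windows. The counts are per gene and the shares per window, so they are not directly comparable. The erythroid factors GATA1, KLF1, TAL1 and GFI1B did not differ 2-fold between the libraries. Each of them also had AGGAAG or its complement in a window, so this motif was not particular to genes higher in replicate 1. In PPBP the 2 motifs overlap in the run near the far end of the window. A match of letters is a description and does not show a bound site.

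Of the myeloid genes 12 of 40 were expressed, against 57.5% of all protein-coding entries, with 18 low and 10 near background. The granule enzymes of neutrophil precursors were at or near 0, with 1 and 1 counts for MPO, 1 and 6 counts for ELANE and none for CTSG. PRTN3 stood at 0.640 and 0.271 CPM and AZU1 at 2.33 and 1.92 CPM. CEBPA, the factor that starts granulocyte development, had 1 and 0 counts, whereas SPI1, which opposes GATA1 in blood cell fate, stood at 24.6 and 15.996 CPM. CEBPB, a factor used by many cells, led the list per length with SERPINB1 and FCGR2A, at 85.1 and 62.2 TPM, 76.4 and 67.3 TPM and 34.6 and 48.044 TPM. CD163, a macrophage receptor, had no count, but it overlaps CD163L1, which had 96 and 86 counts. ITGAM, the alpha chain of a leucocyte integrin, was the single member 2-fold or more higher in replicate 1, with 537 and 34 counts, or 8.82 and 0.709 CPM, and a ratio of 12.4 (8.79 to 18.1). It was under 1 CPM in replicate 2.

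Of the stem and progenitor list 16 of 35 members were expressed, made up of 3 of 10 surface genes, 11 of 18 factors and 2 of 7 others. CD34 and PROM1, surface markers of blood stem cells, had no count in either library. TEK, HOXA9, HOXA10, SPINK2, CRHBP, AVP, HOPX and NPR3 also had none, which makes 10 of 35 members at 0. FLT3 had 16 and 13 counts and KIT, the stem cell factor receptor, stood at 2.25 and 1.25 CPM. Among the factors, LYL1 stood at 167 and 141 CPM, GATA2 at 282 and 342 CPM and MECOM at 64.4 and 62.8 CPM. The surface gene PTPRC, the common leucocyte antigen CD45, stood at 99.2 and 43.9 CPM, a ratio of 2.26 (2.15 to 2.37).

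Fetal genes were expressed for 7 of 9 members. IGF2BP1, an RNA-binding protein of fetal tissue, stood at 566 and 792 CPM, IGF2BP2 at 137 and 142 CPM and IGF2BP3 at 109 and 96.2 CPM. LIN28B, which blocks let-7 processing, stood at 124 and 150.5 CPM, and the DNA-binding protein ARID3A at 272 and 285 CPM. HMGA2 had 3 and 1 counts and IGF2 none.

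Lymphoid genes were expressed for 7 of 35 members. LEF1 and TCF7, factors of the Wnt pathway, led per length at 30.979 and 38.9 TPM and 14.5 and 23.4 TPM, and CD22 stood at 8.28 and 9.11 TPM. Of the CD3 chains, CD3D stood at 2.94 and 2.59 CPM, CD3E at 0.263 and 0.146 CPM and CD3G at 0.443 and 0.396 CPM, and CD2 had 6 and 0 counts. CD28, DNTT, MS4A1, PAX5, VPREB1, IGLL1 and NCAM1 had no count. EBF1, a B cell factor, was higher in replicate 2, at 1.10 and 2.44 CPM and a ratio of 0.451 (0.329 to 0.614). On the list of mast cells, basophils and eosinophils, MS4A2, CPA3, TPSAB1 and TPSB2 had no count. HDC and EPX were low, at 0.394 and 0.0834 CPM and 0.493 and 0.521 CPM. Only SLC18A2, at 16.3 and 22.1 CPM, and ENPP3 were expressed, and ENPP3 was higher in replicate 2 at 10.2 and 22.6 CPM, a ratio of 0.454 (0.411 to 0.501).

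Most markers of cell types outside the blood were low or near background. Their 7 lists held 75 different genes, of which 20 were expressed and 43 were near background, 25 of these with no count. Those without a count were ROBO4 and EMCN of endothelium, LUM and PDGFRA of fibroblasts, KRT5, KRT14 and ESRP1 of epithelium, ALB, TTR, APOB, FGB and HNF4A of liver, SOX2, DCX, OLIG2, NEUROD1 and STMN2 of neurons and glia, MYOD1, TNNT2 and MYOG of muscle, and NANOG, DNMT3L, SALL4, PRDM14 and UTF1 of pluripotent cells. The 20 expressed genes were 6 epithelial, 4 neural, 3 fibroblast, 2 endothelial, 2 muscle, 2 pluripotent and 1 liver marker. KRT8 stood at 698 and 566 CPM, KRT19 at 162 and 82.023 CPM, KRT18 at 41.8 and 65.2 CPM and the adhesion protein EPCAM at 41.7 and 47.967 CPM, but the epithelial cadherin CDH1 had 0 and 2 counts.

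Among fibroblast genes, the filament protein VIM stood at 101 and 165 CPM and fibronectin, FN1, at 68.6 and 80.3 CPM. The collagen chain COL1A2 stood at 47.974 and 139.8 CPM, a ratio of 0.343 (0.328 to 0.358), so it was 2-fold or more higher in replicate 2. Its partner COL1A1 had 8 and 7 counts, COL3A1 6 and 9 counts and DCN 6 and 2 counts. Endothelial CDH5 and KDR had 1 and 0 counts and 4 and 0 counts, TIE1 stood at 0.509 and 0.563 CPM and ENG at 3.45 and 3.75 CPM. ESAM, an endothelial and platelet adhesion protein, was 2-fold or more higher in replicate 1 at 3.27 and 1.36 CPM, a ratio of 2.41 (1.81 to 3.24).

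In the remaining tissue lists few genes were expressed. On the liver list SERPINA1, APOA1 and AFP had 0 and 2 counts, 3 and 3 counts and 10 and 3 counts. On the neural list the filament NES stood at 35.8 and 29.8 CPM, the vesicle protein SYP at 22.3 and 19.3 CPM and the factor PAX6 at 9.52 and 6.53 CPM, while MAP2 had 3 and 1 counts. On the muscle list TNNI3 stood at 11.3 and 7.05 CPM, DES at 3.84 and 3.69 CPM and CKM at 0.607 and 0.396 CPM, while MYH6 and MYH7 had 22 and 6 counts and 1 and 0 counts. On the pluripotent list LIN28A stood at 4.61 and 3.69 CPM, POU5F1 at 1.36 and 1.02 CPM and ZFP42 at 0.640 and 0.584 CPM, and DPPA4 had 1 and 2 counts.

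Of 26 antigen presentation genes 11 were expressed, or 42.3% against 57.5% of all protein-coding entries, while 11 were low and 4 were near background. Of the classical class I molecules that present peptides, HLA-B had 6 and 6 counts, while HLA-C was just above the expressed level at 1.38 and 1.52 CPM. Their shared light chain B2M stood at 165 and 146 CPM, the chaperone CALR at 1360.1 and 1121 CPM and the loading factor TAPBP at 84.1 and 98.6 CPM. HLA-G, HLA-DRA and HLA-DRB1 had no count. These loci differ between people, and how reads far from the reference were counted was not tested. Ligands of natural killer cells were expressed for 7 of 11 genes, or 63.6%, near the 57.5% of all protein-coding entries. BAG6 stood at 466 and 523 CPM, NCR3LG1 at 116 and 114 CPM, NECTIN2 at 92.7 and 87.2 CPM, MICB at 46.4 and 38.3 CPM and MICA at 14.973 and 15.4 CPM. ULBP1 and ULBP2 were low at 0.591 and 0.417 CPM and 0.213 and 0.334 CPM, and ULBP3 had no count.

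Cancer-testis genes, which are normally confined to germ cells, were expressed for 14 of 25 entries. This share of 56% is near the 57.5% of all protein-coding entries. PRAME was the highest gene of the list per length at 2425 and 2253 TPM, or 2818 and 2538 CPM, within the 15 highest entries of the whole table. CTCFL, a germ-cell relative of CTCF, stood at 285 and 266 CPM and MAGEA12 at 79.3 and 70.2 CPM. GAGE1 stood at 29.963 and 35.3 CPM and PAGE1 at 6.88 and 7.53 CPM. XAGE1A, MAGEA4, CTAG1B, SYCP1, SPANXB1, GAGE2A and TEX101 had no count. Several belong to families of near-identical copies, so their levels are uncertain.

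K562 carries the BCR-ABL1 fusion kinase, and all 15 genes of its signalling list were expressed. BCR stood at 413 and 489 CPM and ABL1 at 509.9 and 601 CPM, counts that do not separate fused from unfused transcripts. The adaptor CRKL, a main substrate of the kinase, led the list per length at 383 and 379 TPM, or 1032 and 989 CPM, and STAT5A and STAT5B stood at 396 and 600.2 CPM and 309.7 and 315 CPM. INPP5D, a lipid phosphatase of blood cells, was 2-fold or more higher in replicate 1 at 14.4 and 2.29 CPM, a ratio of 6.28 (5.15 to 7.73). Of 11 known targets of STAT5, 10 were expressed. PIM2 and PIM1 stood at 356 and 442 CPM and 491 and 467 CPM, MYC at 362 and 523 CPM, BCL2L1 at 286 and 227 CPM, CISH at 133 and 136 CPM and SOCS2 at 106 and 102 CPM.

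The tumour suppressors CDKN2A and CDKN2B and the neighbouring MTAP had no count in either library. The locus is known to be deleted in K562. From IFNB1 to DMRTA1 on chr9:21077103-22455739 (GRCh37), 44 of 47 entries had no count, IFNA1 and KLHL9 among them. Over the whole table, 21523 of 52088 entries had no count in either library, and many of the 47 are interferon genes or pseudogenes. The entries of the stretch with counts were IFNA2 with 14 and 7, the pseudogene KHSRPP1 with 2 and 2, and RN7SL151P, one of many copies of 7SL RNA, with 65 and 31. FOCAD beside the stretch had 57 and 49 counts, and the next 3 protein-coding entries on the far side, ELAVL2, IZUMO3 and TUSC1, had none. Lost genes and silent genes both give no count, and the extent of the deletion was not tested. MDM2 stood at 106 and 116 CPM. Other inhibitors of the cell cycle were expressed, with CDKN2C at 127 and 97.5 CPM and CDKN1B at 54.8 and 41.1 CPM.

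All 22 proliferation genes were expressed, and none differed 2-fold between the libraries. MCM7 of the replication helicase stood at 849 and 706 CPM, TOP2A at 723 and 766 CPM, MKI67 at 359 and 561.9 CPM, PCNA at 253 and 226 CPM, CDK1 at 165 and 176 CPM and CCND3 at 356 and 342 CPM. The 13 housekeeping genes were likewise all expressed, ACTB at 1133 and 1534 CPM, GAPDH at 1628 and 1291 CPM and TBP at 55.5 and 55.4 CPM, none of them 2-fold apart. Cholesterol synthesis was expressed in full, 20 of 20, and 17 of these genes had more CPM in replicate 1, against 5839 of all 13784 entries. INSIG1 stood at 338 and 269 CPM, FDFT1 at 224 and 186 CPM, SQLE at 270.2 and 214 CPM and HMGCS1 at 137 and 103 CPM, with a median log2 ratio of 0.26 over the list.

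Of the immediate-early and stress genes 19 of 22 were expressed, with the chaperones HSPA8 at 2355 and 3019 TPM and HSP90AA1 at 1609 and 1664 TPM highest per length. HSPA8 stood at 2691 and 3344 CPM. HSPA1A stood at 103 and 162 CPM, JUND at 265 and 267 CPM, JUN at 139.5 and 76.7 CPM, EGR1 at 44.4 and 73.952 CPM and FOS at 4.27 and 5.42 CPM. The list's median log2 ratio was -0.27, its genes being mostly a little lower in replicate 1, and none reached 2-fold. Of the ATF4 targets 16 of 17 were expressed, SHMT2 at 169 and 198 CPM, SLC7A5 at 169.7 and 282 CPM, TRIB3 at 143 and 109 CPM, ASNS at 80.8 and 101 CPM, DDIT3 at 10.7 and 9.03 CPM and CHAC1 at 5.84 and 3.73 CPM. PHGDH, the entry enzyme of serine synthesis, was 2-fold or more higher in replicate 1 at 10.6 and 5.13 CPM, a ratio of 2.06 (1.77 to 2.39).

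Of the hypoxia and glycolysis list 17 of 19 genes were expressed. The glycolytic enzyme ENO1 stood at 3265 and 2985 CPM and ALDOA at 1306 and 1183 CPM. VEGFA, which hypoxia induces, stood at 118 and 115 CPM and NDRG1 at 27.8 and 20.4 CPM, but CA9 and ADM, which hypoxia also induces, had 1 and 1 counts and 2 and 0 counts. Interferon-stimulated genes were expressed for 8 of 19. IFITM1 stood at 77.5 and 81.1 CPM, IFITM3 at 21.1 and 30.1 CPM and ISG15 at 11.049 and 8.93 CPM. OAS1, OAS2, IFI44 and IFI44L had no count, MX1 had 1 and 0 counts and IFIT1 5 and 5 counts. Of 12 with a mean of at least 1 CPM, 3 were 2-fold or more higher in replicate 1 and all were low: IFI6 at 1.97 and 0.605 CPM, IFIT3 at 1.86 and 0.688 CPM and OAS3 at 1.74 and 0.792 CPM. Each of these was under 1 CPM in replicate 2.

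**Figure D2:**
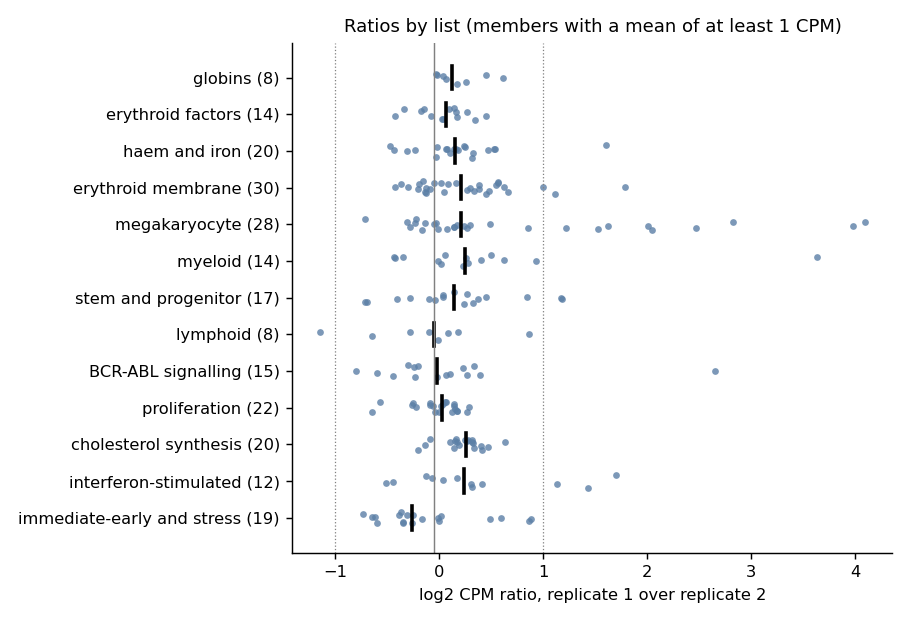
log2 ratio of CPM, replicate 1 over replicate 2, for each member with a mean of at least 1 CPM (points; numbers in brackets) and the list's median (black bar). The grey line is the median of all entries, -0.05, and dotted lines mark 2-fold. The megakaryocyte list has 9 points beyond the right dotted line and none beyond the left.

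The entries with the most counts included non-coding RNAs of basic cell machinery. The highest by CPM, which is not corrected for length, was ENSG00000259001 at 14629 and 14553 CPM. This entry is annotated as a lncRNA and overlaps the start of PARP2 on chr14:20811207-20811844. Which RNA of this short stretch gave the counts was not tested. RMRP, the RNA of an RNA-processing ribonuclease, stood at 13039 and 12654 CPM. The entry 7SK, a regulator of RNA polymerase II pausing, stood at 6577 and 6108 CPM and the box C/D RNA SNORD3A at 5761 and 4037 CPM. The rest of the 15 highest entries by CPM were EEF1A1 at 7402 and 6842 CPM, MT-CO1 at 5098 and 4875 CPM, HSP90AB1 at 4911 and 4783 CPM, EEF2 at 4956 and 4731 CPM, H1-2 at 4392 and 2658 CPM, MT-ND4 at 2663 and 3473 CPM, RPLP0 at 3264 and 2779 CPM and MALAT1 at 2619.5 and 3334 CPM, beside ENO1, HSPA8 and PRAME given above. The 10 highest entries took 7.003% and 6.42% of counts.

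Per length, the 15 highest protein-coding genes included 5 histone genes. H1-2 stood at 11907 and 7433 TPM, H1-4 at 7075 and 5636 TPM, H2AC13 at 6520.4 and 4528 TPM, H4C11 at 8108 and 2532 TPM and H2BC11 at 5171 and 2358 TPM. HBE1 came second among all protein-coding genes, and FTL was in the same group. The others were the ribosomal protein genes RPLP0 (5854 and 5141 TPM), RPS2 (4565 and 4707 TPM), RPL7A (3854 and 3674 TPM) and RPL9 (3416 and 4003 TPM), with MT-CO1, MT-ND4, EEF1A1 and HSP90AB1. With all exons of a gene as its length, 9 of the 15 were shared. HBE1, at a mean of 7465 TPM, then came below H1-2, MT-CO1, H1-4, H2AC13 and H4C11.

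Histone transcripts were the class that differed most between the libraries in share of counts. They were counted over 34 entries picked by name, and histone genes under other names were not counted, so the share is partial. These entries took 1.89% (exact binomial interval 1.88% to 1.89%) in replicate 1 and 1.28% (1.27% to 1.28%) in replicate 2. How reads shared by similar histone genes were counted is not known. Of 29 histone genes with a mean of at least 1 CPM, 24 had more CPM in replicate 1, against 5839 of all 13784 entries, and 3 were 2-fold or more higher there. The ratio of H4C11 was 3.30 (3.26 to 3.35), that of H3C12 2.39 (2.33 to 2.46) and that of H2BC11 2.26 (2.23 to 2.29). By contrast the mitochondrial genome took 1.52% and 1.57% of counts, and ribosomal protein genes 4.73% and 4.54%. Within the mitochondrial genome the ribosomal RNAs went their own way, with MT-RNR1 at 164 and 68.7 CPM and MT-RNR2 at 141 and 45.8 CPM. Both were 2-fold or more higher in replicate 1.

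Over all entries the Control libraries were close. Among the 13784 with a mean of at least 1 CPM, the median absolute log2 ratio was 0.20 and its 95th percentile 0.82. In all, 184 were 2-fold or more higher in replicate 1 and 200 in replicate 2, so that 47.9% of the calls were on the side of replicate 1. Among protein-coding entries alone the counts were 164 and 88, and among lncRNAs 10 and 54. Scaling by TMM, which moved the median of all entries by about 0.1 on the log2 scale, gave 223 and 133, or 62.6% on that side, and DESeq2 size factors gave 243 and 112, or 68.5%. Low entries differed more. With protein-coding entries in 5 equal bins by level, the SD of the log2 ratio was 0.61 in the lowest bin and 0.27 in the highest.

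**Figure D3:**
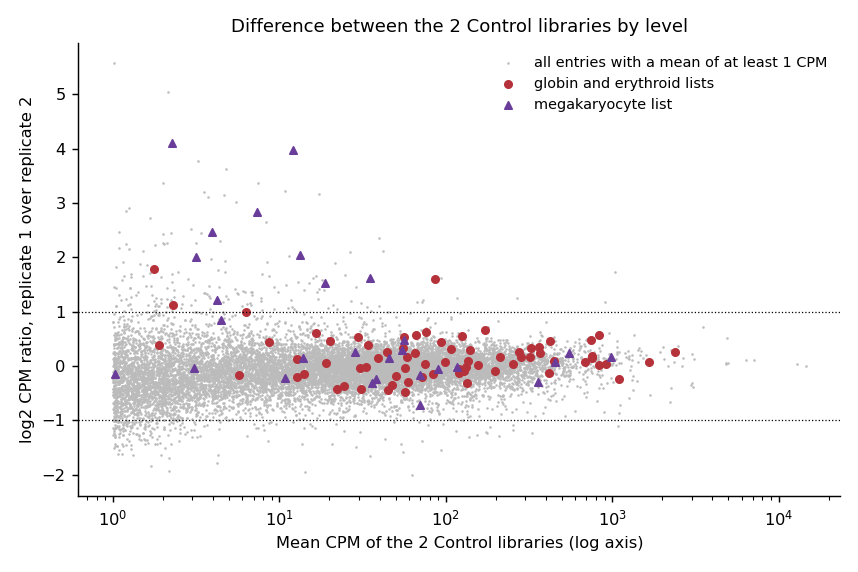
log2 ratio of CPM, replicate 1 over replicate 2, against the mean CPM of the 2 Control libraries (log axis) for 13784 entries (grey), the globin and erythroid lists (circles) and the megakaryocyte list (triangles). Dotted lines mark 2-fold. Triangles above the upper line reach log2 4.10 (SELP), whereas the erythroid genes lie mostly between the lines.

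At a mean of 5 CPM or more, the entries most on the side of replicate 1 after PPBP included genes of blood cell signalling. HEPACAM2 stood at 13.6 and 1.31 CPM, CD84, a leucocyte receptor, at 19.5 and 2.09 CPM, TRANK1 at 31.1 and 3.46 CPM and DAPP1, an adaptor of B cell signalling, at 9.80 and 1.21 CPM. After PLEK and INPP5D came CD53, a leucocyte tetraspanin, at 66.2 and 12.9 CPM, the tubulin TUBA1A at 68.7 and 15.8 CPM and NCKAP1L, an actin regulator of blood cells, at 42.9 and 9.97 CPM. The ratios of these 10 entries were 4.30 or more.

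Among entries with a gene symbol, the 10 largest ratios on the side of replicate 2 were smaller in size, between 0.248 and 0.384. LINC00861 stood at 24.955 and 101 CPM and the pseudogene SOD1P3 at 5.84 and 22.5 CPM. YLPM1 stood at 16.993 and 53.2 CPM, the Mediator subunit MED14 at 27.7 and 82.5 CPM, the corepressor BCORL1 at 15.3 and 42.9 CPM and the splicing factor SF3A1 at 29.3 and 79.02 CPM. The neuropeptide gene GAL stood at 11.2 and 30.2 CPM, the cyclin CCND1 at 7.42 and 20 CPM and NAV1 at 4.76 and 12.4 CPM, beside COL1A2 above. None of these is on a blood lineage list.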

How the data were processed

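RNA was isolated by the authors with the ISOLATE II RNA Mini Kit, and stranded RNA libraries were made from it with the Collibri kit. Reads were trimmed with Cutadapt (version 3.4) and aligned to GRCh37 with STAR, which also counted reads per gene. The authors deposited raw read counts per gene. No source used here gives the strand setting of the count or the handling of reads that match several places. The table holds 4 further columns that match no sample, and those of the knockouts and the authors' tables of fold changes and p-values were not used.

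CPM was taken over library totals, and TPM over the 50788 entries with a transcript length in GENCODE release 44 lifted to GRCh37 (Ensembl canonical transcript). Ratios between the 2 libraries carry exact 95% binomial intervals, for counting error only, and no test was run on 1 group of 2 libraries. They were not copies of 1 library, since their counts differed with a chi-square of 47.1 per degree of freedom. Named were all globins, the 15 highest entries by CPM and the 15 protein-coding by TPM, the first 4, the 3 highest and the members at 0 of each of 30 gene lists, the 10 largest ratios in each direction at 5 CPM or more, and list members at 2-fold. For the largest ratios, entries named only by an Ensembl identifier and those on chromosome Y were left out. The members and lists were chosen with earlier results of these data known. Of the listed genes 5 (RHEX, PECAM1, SSX4, CT45A1 and BAGE) were not analysed here, and some other genes that this rule names are not reported here. Alternatives used TMM from edgeR (version 4.0.16), size factors from DESeq2 (version 1.42.0), other minimums and each library alone. Calls and intervals were tested on simulated data. Python (version 3.11.15) and R (version 4.3.3) were used.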

Additional observations from a re-analysis of the deposited data

How the results depend on the processing

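No paired analysis was possible because the 2 libraries form 1 group and no result comes from a test. The count of expressed entries, 13251, stayed between 10008 and 15505 under the other minimums and TMM, and between 13513 and 14026 with either library left out. A minimum of 5 CPM left 7 myeloid and 3 lymphoid genes expressed, against 12 and 7, and the counts of the other blood lineage lists and the globins stayed within 1.5-fold under every alternative. The counts of entries 2-fold apart depended on the choices. Those higher in replicate 2 were 133 with TMM and 112 with DESeq2 size factors, against 200. At a mean of 5 CPM or more, 73 were higher in replicate 1 and 44 in replicate 2, and with no minimum 1284 and 3105. At 1.5-fold the counts were 460 and 1092. The median log2 ratios of the globin, erythroid, megakaryocyte, myeloid, stem and progenitor lists stayed above 0 under every alternative, whereas that of the lymphoid list changed sign with the scaling, -0.05 as reported and 0.05 with TMM. Of the megakaryocyte genes, 5 were 2-fold or more higher in replicate 1 at a mean of 5 CPM or more and 12 with no minimum, and none was higher in replicate 2 in either. Among the other gene lists and the ranking by TPM, 10 values moved beyond the same limits. Shares of counts by class moved by less than the spread between the libraries. Genes under a few CPM rest on few counts, so their levels and ratios are the least certain.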

Other observations

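Some groups were seen only on going through the ratios, and their genes were chosen after their values were seen, so their counts support nothing. Some of the genes 2-fold or more higher in replicate 1 are ones that white blood cells use, and other such genes were not counted. LAPTM5, a lysosomal protein of blood cells, stood at 101 and 43.9 CPM, DOCK2, a regulator of leucocyte migration, at 27.8 and 9.64 CPM, and VAV1, an exchange factor of blood cells, at 16.3 and 5.78 CPM. CORO1A stood at 8.96 and 3.50 CPM, CTSS at 7.29 and 1.48 CPM, MYO1F at 6.22 and 1.58 CPM and HCLS1 at 5.30 and 2.65 CPM. Of 8 genes on the lymphoid list with a mean of at least 1 CPM, none was 2-fold higher in replicate 1. On that list 1 gene, EBF1, was 2-fold higher in replicate 2. Of 14 such genes on the myeloid list, 1 was higher in replicate 1 and none in replicate 2. The entry with the largest ratio among those at a mean of 1 CPM or more was RGS18, a regulator of platelet signalling that was on none of the lists, with 121 and 2 counts and a ratio of 47.6 (12.9 to 398). RGS18 passed the level filter through replicate 1 alone, at 1.99 and 0.0417 CPM.

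Some of the genes 2-fold or more higher in replicate 2 encode chromatin regulators, and other regulators were not counted. KMT2D, a histone methyltransferase, stood at 156 and 352 CPM, BCOR, a corepressor, at 199 and 465 CPM, and SRCAP, a chromatin remodeller, at 105 and 247 CPM. ARID1A stood at 164 and 346 CPM, SPEN at 90.1 and 216 CPM, EP400 at 79.6 and 196 CPM and MED12 at 40.2 and 104 CPM. These genes are well counted, with 2447 or more counts in each library. Protein-coding entries were put in 5 equal bins by transcript length or by GC content. The median log2 ratio was -0.09 in the bin of the longest transcripts and -0.12 in that of the lowest GC content. In both bins more entries were 2-fold higher in replicate 1 than in replicate 2. The counts were 40 and 27 for the longest transcripts, and 24 and 19 for the lowest GC content. The 88 entries called higher in replicate 2 had medians of 3516 bases and 47.365% GC. Over all 11248 entries the medians were 3288 bases and 47.99% GC. The part of transcript length, GC content or RNA quality was not tested.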
